A study of Homo sapiens with 12 samples.

Results

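The MYC, MAX and MXD network was followed through 10 genes: MYC, MYCN, MAX, MXD1, MXD3, MXD4, MXI1, MNT, MLX and MGA. They were found by symbol among 57820 genes with RNA-seq values from HL60 cells, a human acute myeloid leukaemia line of promyelocytic type known for its amplified MYC. All 10 reached a mean of 10 normalized reads across the 12 libraries and were tested with every other gene that did, 23128 in all. MYCN and MXD3 stayed below a mean of 200 and the other 8 did not. EV cells carried pRRL-EV-puro, a vector without an insert. TFEB cells carried pRRL-TFEBS211A-puro, from which doxycycline induces a mutated form of TFEB, a basic helix-loop-helix leucine zipper factor best known for lysosomal genes. Each line received vehicle or doxycycline, which gave EV-Veh, EV-Dox, TFEB-Veh and TFEB-Dox, with 3 libraries each from biologically independent experiments. Libraries are named by group and replicate, as in EV-Veh 2. Doxycycline was listed at 1 µg/ml for 48 h in the protocol of every sample, vehicle included, so the groups rest on the titles and treatment labels. EV-Dox therefore stands for the drug without the TFEB insert, and no source used here says whether a line was a clone or a pool.

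MYC is a transcription factor that binds DNA as a heterodimer with MAX, mostly at the E-box CACGTG, and raises genes of ribosome production, nucleotide synthesis and cell division. MXD1, MXD3, MXD4, MXI1 (also called MXD2), MNT and MGA compete for the same partner, and their dimers with MAX repress many of the same sites, the MXD proteins and MNT through the SIN3 corepressor. MLX is the partner of a parallel branch, the glucose-responsive factors MLXIP (MondoA) and MLXIPL (ChREBP), and it can also pair with MXD1, MXD4 and MNT. In myeloid cells a shift from MYC with MAX to MXD1 with MAX is a classic feature of differentiation.

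Promoter stretches of 4 members are shown because the E-box is the site that the network reads and that the known TFEB motif contains, and because these members went different ways when TFEB was induced. Each is upstream DNA from RefSeq (GRCh38.p14), cut where the first GENCODE 29 exon in the window begins, written 5′ to 3′ on the gene's strand, and capitals mark CACGTG.
MLX, chr17:42566850-42567067, plus strand: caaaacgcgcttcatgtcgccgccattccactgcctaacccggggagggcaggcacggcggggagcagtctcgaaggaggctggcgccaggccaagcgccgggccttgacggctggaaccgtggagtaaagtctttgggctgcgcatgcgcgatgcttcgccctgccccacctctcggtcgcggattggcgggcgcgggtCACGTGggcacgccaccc
MXD1, chr2:69914859-69915040, plus strand: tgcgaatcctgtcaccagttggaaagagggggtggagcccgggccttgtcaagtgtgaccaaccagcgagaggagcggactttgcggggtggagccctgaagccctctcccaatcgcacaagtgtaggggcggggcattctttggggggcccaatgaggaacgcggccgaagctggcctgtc
MXD4, chr4:2262295-2262359, minus strand: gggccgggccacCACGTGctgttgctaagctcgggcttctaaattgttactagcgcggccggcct
MNT, chr17:2401119-2401310, minus strand: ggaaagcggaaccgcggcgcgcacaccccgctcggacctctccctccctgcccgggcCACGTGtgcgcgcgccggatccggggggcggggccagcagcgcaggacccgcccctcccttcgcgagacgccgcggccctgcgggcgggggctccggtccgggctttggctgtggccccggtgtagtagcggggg
RefSeq windows of 250 bases before a start were found for 9 members, all except MYC, and made 14 windows. CACGTG, which reads the same on both strands, was present in 3 of the 14: MLX, 50 bases before the start, MNT at 193 and MXD4 at 238. It was present in 6.34% of 35116 promoter windows of that length. TCACGTGA, a longer form that contains CACGTG, was in 0.854% of all windows and in none of the 14. A match describes these letters only. Of the 3 members with a match, MLX rose, MXD4 fell and MNT was not called in TFEB cells with doxycycline, and MXD1, which rose, had no match in this window.

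Values are normalized reads, and the scale they are on changes the direction of some members. The authors' values come from reads divided by 1 factor per library. Libraries held 10709170 to 22488047 reads in EV-Veh, 4474007 to 11681639 in EV-Dox, 7769481 to 13933397 in TFEB-Veh and 13931354 to 20267420 in TFEB-Dox. EV-Dox 3 held the fewest and EV-Veh 2 the most. Mitochondrial genes took 21.0 to 26.5, 26.2 to 33.1, 23.8 to 29.4 and 13.3 to 17.9% in that order. Genes below a mean of 200 took 4.74 to 7.77, 8.43 to 18.2, 6.63 to 11.1 and 4.86 to 5.78%. EV-Dox and TFEB-Dox did not overlap in any of these measures, and their part in the comparisons was not tested. On the deposited scale library totals still differed 5.56-fold, and 7290 nuclear genes at a mean of 200 or more, the expressed genes, had a median log2 change of -1.29 in EV-Dox against EV-Veh. The same median was 0.73 in TFEB-Dox against TFEB-Veh. A second scale, called the expressed-gene scale here, set the median of those 7290 genes equal between libraries and brought these medians to 0 and -0.02. Its factors ranged 7.07-fold. Over all genes tested it moved the median from -0.19 to 1.05 in EV cells and from 0 to -0.72 in TFEB cells, so both scales are printed side by side. Ratios between genes within a library do not depend on either.

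The TFEB gene checked the labels: it was 79.8 to 196 deposited normalized reads in the 9 libraries without induced TFEB and 14470 to 22629 in the 3 TFEB-Dox libraries. Of 9 markers of HL60 cells, 7 had a mean of at least 200. Their sum was 0.640 to 0.977% of the reads in EV-Veh, 0.130 to 0.308% in EV-Dox, 0.626 to 0.858% in TFEB-Veh and 0.0623 to 0.0809% in TFEB-Dox. The marker sum was therefore lower in the doxycycline groups, as MYC was, and its part in the results was not tested. MPO, the myeloid peroxidase, was the most abundant marker in each group, at a mean of 109799 deposited normalized reads in EV-Veh and 5604 in TFEB-Dox. In EV-Veh the marker sum was 66360 to 217936 deposited normalized reads, and MPO alone was 55736 to 187310. The sum therefore followed MPO above all and does not stand for each marker. Single markers did not all follow the sum, and some depended on the scale. In TFEB cells SPI1 was 2508 ± 720 with vehicle and 3447 ± 899 with doxycycline on the deposited scale (SD, n = 3). On the expressed-gene scale SPI1 was lower with doxycycline, at 2786 ± 106 and 2301 ± 141. CEBPA had a higher mean with doxycycline in TFEB cells on both scales, with a wide spread. It was 28.5 ± 13.4 and 58.0 ± 39.0 on the deposited scale, and 30.5 ± 8.2 and 36.9 ± 19.6 on the expressed-gene scale. In EV cells CD33 was 995 ± 378 and 447 ± 222 on the deposited scale. Its expressed-gene values were 692 ± 72 and 722 ± 30. These 4 were named after their values were seen. No marker of another cell type among 14 had a mean of 200, and their sum was 0.00144 to 0.0165% of the reads. In these bulk samples fewer cells of a type and less RNA per cell cannot be told apart.

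MYC fell with doxycycline in both lines. Its deposited values were 20650, 48118 and 24416 normalized reads in EV-Veh and 4061, 3629 and 1842 in EV-Dox. They were 9265, 20658 and 26296 in TFEB-Veh and 3158, 7047 and 5132 in TFEB-Dox. In neither line did a doxycycline library reach a vehicle library. The log2 change was -3.27 ± 0.59 (SE) in EV cells (limma, Benjamini-Hochberg adjusted p = 7.17e-04) and -1.82 ± 0.59 in TFEB cells (adjusted p = 0.0205). The second call ended without any 1 of TFEB-Veh 2 and 3 and TFEB-Dox 1 and 3 (adjusted p of 0.0895, 0.12, 0.127 and 0.0623). With no filter on low values both deposited calls ended (adjusted p of 0.0755 and 0.441).

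With expressed genes set level MYC was 17247, 21768 and 24499 normalized reads in EV-Veh and 4502, 5676 and 5890 in EV-Dox. It was 14834, 20236 and 25251 in TFEB-Veh and 2462, 3877 and 3782 in TFEB-Dox. The replicates lay closer together than on the deposited scale. The changes were -1.98 ± 0.23 (3.94-fold lower, adjusted p = 7.58e-05) in EV cells and -2.57 ± 0.23 (5.94-fold lower, adjusted p = 1.13e-07) in TFEB cells, and both calls held without any 1 library. Among the 7290 expressed genes only 5 had a lower change than MYC in EV cells, and 77 had one in TFEB cells, on both scales. Over both lines together the mean log2 difference of doxycycline from vehicle was -2.54 on the deposited and -2.27 on the expressed-gene scale. Either had an exact permutation p of 0.005 over 400 regroupings within the lines, the smallest that test can give (two-sided, raw, 1 of 10 members tested on each scale). MYC took 0.155 to 0.235% of all reads in EV-Veh, 0.0409 to 0.0493% in EV-Dox, 0.131 to 0.215% in TFEB-Veh and 0.0201 to 0.0323% in TFEB-Dox.

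For MYC the difference between the lines had opposite signs on the deposited and expressed-gene scales. The test of the difference between the lines (the interaction of vector and doxycycline) gave 1.45 ± 0.83 on the deposited scale (adjusted p = 0.164) and -0.59 ± 0.32 on the expressed-gene scale (adjusted p = 0.105). Without TFEB-Veh 1 the latter passed (-0.80, adjusted p = 0.0432). TFEB-Dox against EV-Dox gave 0.69 ± 0.59 on the deposited scale (adjusted p = 0.375) and -0.69 ± 0.23 on the expressed-gene scale (adjusted p = 0.0157). The second of these was called, but not without TFEB-Dox 1 (adjusted p = 0.0819).

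MYCN, a MYC paralog of neural and embryonic tissue, was near background. It had 3 to 19 reads per library, and 14.0, 2.98 and 9.69 deposited normalized reads in EV-Veh against 16.1, 13.4 and 14.4 in EV-Dox. The values were 14.6, 4.82 and 11.9 in TFEB-Veh and 15.7, 15.1 and 9.78 in TFEB-Dox, and the groups overlapped in both lines. No change passed the test on the deposited scale. The expressed-gene scale gave 1.98 ± 0.70 in EV cells (adjusted p = 0.0328), a call that ended without EV-Veh 2 or EV-Dox 2 or 3 (adjusted p of 0.172, 0.0582 and 0.125). No source used here gives the strand setting of the counting, so reads of MYCN and its antisense neighbour cannot be told apart.

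**Figure D1:**
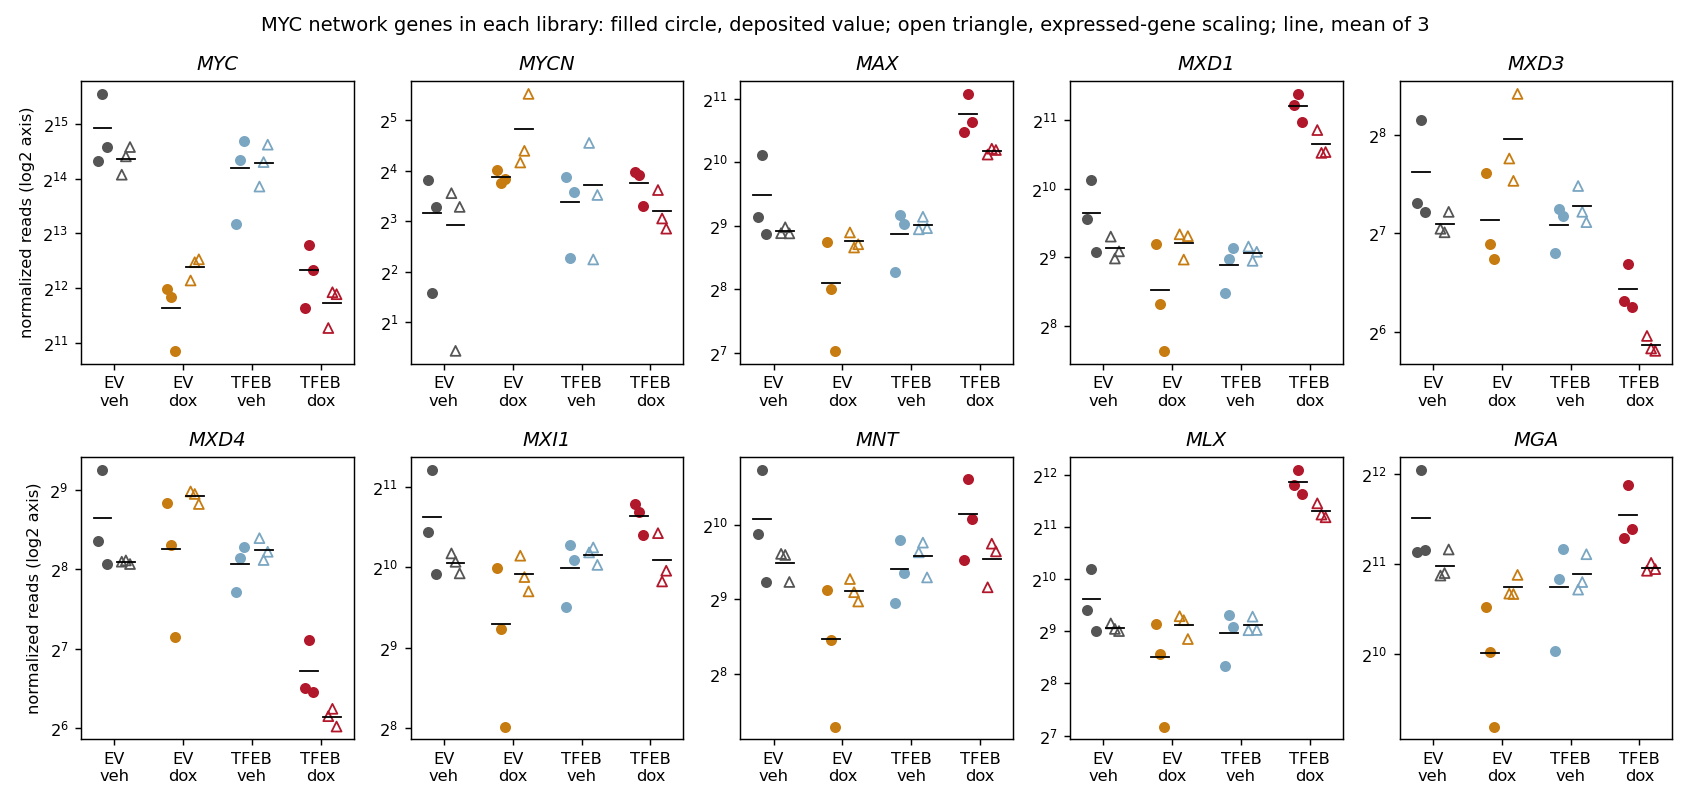
Normalized reads of the 10 genes in each of the 12 libraries on a log2 axis, 1 panel per gene, by group. Filled circles are deposited values, open triangles the expressed-gene scale and lines the mean of 3 libraries; MYC was lower in both doxycycline groups, while MAX, MXD1 and MLX were highest in TFEB-Dox on both scales.

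MAX, the shared partner of MYC and its antagonists, rose when TFEB was induced. Its deposited values were 308, 577 and 520 in TFEB-Veh and 1428, 2157 and 1588 in TFEB-Dox, with no overlap. The change was 1.91 ± 0.50 (adjusted p = 0.00375) and on the expressed-gene scale 1.16 ± 0.12 (2.23-fold higher, adjusted p = 5.24e-07). In EV cells MAX was 565, 1114 and 470 with vehicle and 430, 258 and 131 with doxycycline. That is a fall on the deposited scale, by 1.44 on the log2 scale (SE 0.50, adjusted p = 0.0325). After levelling of expressed genes the values were 472, 504 and 471 against 476, 404 and 419, which overlapped, and the change of -0.16 ± 0.12 did not pass (adjusted p = 0.242). MAX was thus called in TFEB cells alone on the second scale, upward, where MYC was called downward in both.

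MLX, the partner of MLXIP and MLXIPL, had the largest change of the 10 genes in TFEB cells on the deposited scale. It was 324, 635 and 542 deposited normalized reads in TFEB-Veh and 3590, 4381 and 3156 in TFEB-Dox. The lowest induced library was well above the highest vehicle library. The rise was 2.93 ± 0.52 (adjusted p = 2.55e-05), or 2.18 ± 0.14 on the expressed-gene scale (4.53-fold, adjusted p = 2.05e-09). In EV cells MLX was 680, 1167 and 511 with vehicle and 564, 379 and 144 with doxycycline. These groups overlapped, and neither scale gave a call with all libraries: -1.24 ± 0.52 (adjusted p = 0.0698) and 0.05 ± 0.14 (adjusted p = 0.756). The deposited fall was called without EV-Veh 3 or EV-Dox 1 (adjusted p of 0.0429 and 0.0118).

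Neither factor that pairs with MLX was called higher in TFEB cells. MLXIP was 1475 ± 380 deposited normalized reads in TFEB-Veh and 816 ± 202 in TFEB-Dox (SD, n = 3). Its change of -0.85 ± 0.53 did not pass on the deposited scale (adjusted p = 0.284), whereas it fell on the expressed-gene scale, by 1.60 on the log2 scale (SE 0.11, adjusted p = 1.07e-08). MLXIPL, at 33.5 ± 3.5 and 28.0 ± 8.4 normalized reads, was not called in TFEB cells on either scale. In EV cells MLXIPL was 23.2 to 35.1 normalized reads with vehicle and 46.1 to 54.7 with doxycycline, without overlap. It rose by 0.76 ± 0.29 (adjusted p = 0.0470) on the deposited and 2.02 ± 0.50 (adjusted p = 0.0117) on the expressed-gene scale. The first call ended without any 1 EV library, TFEB-Veh 2 or 3, or TFEB-Dox 1 or 3 (adjusted p of 0.0507 to 0.176). The second ended without EV-Veh 2 (adjusted p = 0.0586). Of all genes tested 3.39% rose in EV cells on the deposited scale (median -0.19) and 44.1% on the expressed-gene scale (median 1.05). The 14 markers of other cell types, also low, summed to 321 to 469 deposited normalized reads in EV-Veh and 505 to 660 in EV-Dox. MLXIP was not called there on the deposited scale (-0.99 ± 0.53, adjusted p = 0.145) except without EV-Dox 1 (adjusted p = 0.0440), and rose by 0.30 ± 0.11 on the expressed-gene scale (adjusted p = 0.0433). That rise ended without any 1 of 8 libraries (adjusted p of 0.0513 to 0.145): any EV-Veh library, EV-Dox 1 or 3, TFEB-Veh 2, or TFEB-Dox 2 or 3.

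MXD1, the MXD protein linked to terminal myeloid differentiation, rose in TFEB cells. Its deposited values were 356, 504 and 563 with vehicle and 2382, 2678 and 2016 with doxycycline, again without overlap. The rise was 2.33 ± 0.50 (adjusted p = 3.60e-04) and 1.58 ± 0.14 on the expressed-gene scale (2.99-fold, adjusted p = 1.35e-07). In EV cells it was 755, 1117 and 541 with vehicle and 582, 320 and 198 with doxycycline, overlapping groups, with changes of -1.21 ± 0.50 (adjusted p = 0.0635) and 0.08 ± 0.14 (adjusted p = 0.631). As for MLX, the deposited fall was called without EV-Veh 3 or EV-Dox 1 (adjusted p of 0.04 and 0.0117).

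MXD3, an MXD protein of dividing cells, and MXD4, another repressor of the family, were not called higher in TFEB cells. MXD4 was 210, 284 and 311 deposited normalized reads in TFEB-Veh and 91.2, 138 and 88.1 in TFEB-Dox. All induced libraries were below all vehicle libraries. The fall was 1.35 on the log2 scale (SE 0.43, adjusted p = 0.0200), a call that ended without any 1 of TFEB-Veh 2 and 3 and TFEB-Dox 1 and 3 (adjusted p of 0.0711, 0.082, 0.0802 and 0.103). With expressed genes level it was 336, 278 and 299 against 71.1, 75.8 and 64.9. That change was -2.09 ± 0.15 (4.26-fold lower, adjusted p = 8.28e-09).

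In EV cells MXD4 was 328, 612 and 267 deposited normalized reads with vehicle and 456, 316 and 142 with doxycycline, and it was not called (-0.46 ± 0.43, adjusted p = 0.403). The expressed-gene values were 274, 277 and 268 against 505, 495 and 453, no longer overlapping. That was a rise of 0.82 ± 0.15 (adjusted p = 0.00171), so MXD4 was called in opposite directions in the lines on this scale and not on the deposited one. Among the 7290 expressed genes 588 had a higher change than MXD4 in EV cells and 223 had a lower one in TFEB cells, on the deposited scale.

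MXD3 was 158, 285 and 148 deposited normalized reads in EV-Veh, 195, 118 and 107 in EV-Dox, 111, 152 and 144 in TFEB-Veh and 79.6, 103 and 75.8 in TFEB-Dox. No change passed on this scale (-0.48 ± 0.36 in EV cells, -0.65 ± 0.36 in TFEB cells). The expressed-gene scale gave a rise in EV cells (0.81 ± 0.23, adjusted p = 0.0183) and a fall in TFEB cells (-1.39 ± 0.23, adjusted p = 1.30e-04). On that scale the median of all genes tested had the same signs, at 1.05 in EV cells and -0.72 in TFEB cells. The rise of MXD3 was not called without EV-Veh 2 or EV-Dox 3 (adjusted p of 0.0797 and 0.0816).

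MXI1, MNT and MGA, the remaining antagonists, were not called in either line on the expressed-gene scale. MXI1 was 726, 1239 and 1088 deposited normalized reads in TFEB-Veh and 1760, 1646 and 1348 in TFEB-Dox. MNT, the most widely expressed antagonist, was 495, 885 and 654 against 735, 1561 and 1085. MGA, a very large protein that brings MAX to a Polycomb complex, was 1051, 1821 and 2299 against 2495, 3754 and 2672. No vehicle library of MXI1 or MGA reached an induced one, and the groups of MNT overlapped. Their changes of 0.67, 0.71 and 0.84 did not pass on the deposited scale and were -0.09 ± 0.16, -0.04 ± 0.17 and 0.09 ± 0.13 on the expressed-gene scale, also not called.

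In EV cells the 3 genes were lower with doxycycline on the deposited scale. MXI1 went from 1380, 2370 and 968 normalized reads with vehicle to 1020, 601 and 260, and its groups overlapped. MNT went from 935, 1710 and 600 to 558, 350 and 157, and MGA from 2244, 4222 and 2281 to 1472, 1040 and 589, both without overlap. The changes were -1.43 ± 0.54, -1.65 ± 0.52 and -1.53 ± 0.55 (adjusted p of 0.0433, 0.0217 and 0.0368). The expressed-gene values were -0.15 ± 0.16, -0.37 ± 0.17 and -0.24 ± 0.13, and none passed (adjusted p of 0.420, 0.0786 and 0.122).

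In EV cells, then, 5 of the 10 genes fell on the deposited scale (MYC, MAX, MXI1, MNT and MGA) and 0 rose, where 23.3% of all genes tested and 51.2% of the 7290 expressed genes fell. Of these, 3.39% and 0.370% rose. That share among expressed genes is close to the members' own. The count was 1 without EV-Veh 2 or EV-Dox 3, 2 without EV-Veh 1 or EV-Dox 2, and 3 without TFEB-Veh 2 or TFEB-Dox 1 or 3. Only MYC was called in every fit that left out 1 library: MNT was lost without EV-Veh 2 or EV-Dox 3, MAX without these, EV-Veh 1 or EV-Dox 2, MGA also without TFEB-Veh 2, TFEB-Dox 1 or TFEB-Dox 3, and MXI1 also without TFEB-Veh 3 or TFEB-Dox 2. MYC was likewise the 1 call left when only the EV libraries were fitted. On the expressed-gene scale MYC alone fell and MYCN, MXD3 and MXD4 rose, against 5.75% of all genes tested lower and 44.1% higher, and against 17.5% lower and 20.9% higher among expressed genes. The 3 rises became 1 without EV-Veh 2 or EV-Dox 3. MNT joined MYC without EV-Veh 3.

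In TFEB cells MAX, MXD1 and MLX rose and MYC and MXD4 fell on the deposited scale, where 17.4% of all genes tested rose and 4.66% fell. Among expressed genes 31.5% rose and 3.51% fell. The 3 rises were called without any 1 library, whereas the 2 falls became 0 without TFEB-Veh 2 or 3 or TFEB-Dox 1 or 3. With expressed genes level the same 3 rose and MYC, MXD3 and MXD4 fell, against 14.4% of all genes tested higher and 20.7% lower. Among expressed genes 34.4% were higher and 33.2% lower.

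**Figure D2:**
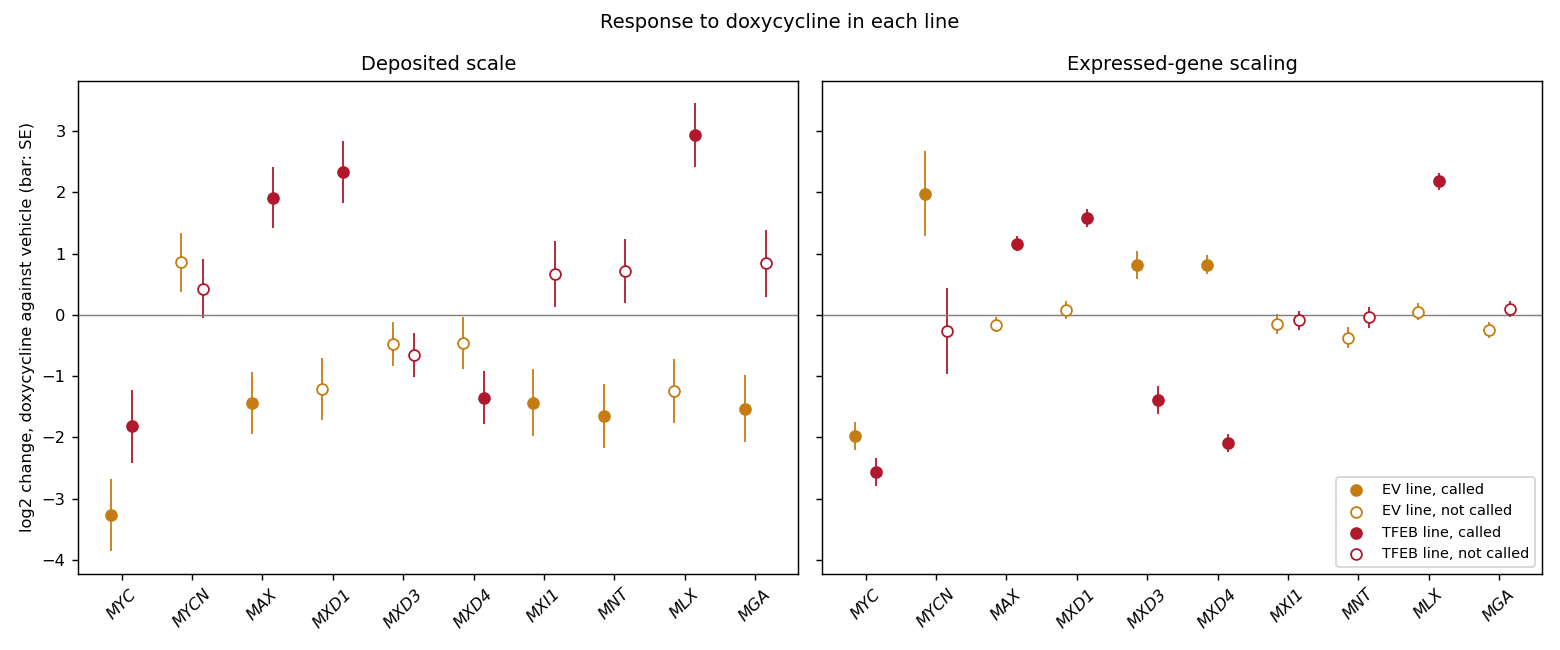
Log2 change with doxycycline against vehicle for each gene, with its standard error, in EV and TFEB cells, on the deposited scale (left) and the expressed-gene scale (right). Filled points passed an adjusted p of 0.05 with limma. MAX, MXD1 and MLX rose in TFEB cells on both scales, and MXD3 and MXD4 were opposite between lines on the expressed-gene scale. So was the median of all genes tested there (1.05 in EV cells, -0.72 in TFEB cells).

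The difference between the lines was tested directly with the interaction. It was called for MAX (3.35 ± 0.71 deposited, 1.32 ± 0.16 expressed-gene), MXD1 (3.53 ± 0.70 and 1.50 ± 0.20) and MLX (4.17 ± 0.74 and 2.13 ± 0.19) on both scales. For MXI1, MNT and MGA the deposited scale gave 2.10 ± 0.76, 2.36 ± 0.74 and 2.36 ± 0.77, all called, and the expressed-gene scale gave 0.06, 0.32 and 0.32, none called. For MXD3 and MXD4 the deposited scale gave -0.17 and -0.88, not called, and the expressed-gene scale -2.20 ± 0.33 and -2.91 ± 0.21, both called. The 6 deposited calls, all higher, stand beside 29.2% of all genes tested and 62.6% of expressed genes higher, and 6.15% and 0.0686% lower. They became 3 without TFEB-Dox 2, which ended the calls of MXI1, MNT and MGA. MGA was also lost without TFEB-Veh 1, and MXI1 without EV-Veh 1, EV-Veh 2, EV-Dox 3, TFEB-Veh 1 or TFEB-Dox 1, while MXD4 was called without EV-Dox 3 (-1.36, adjusted p = 0.0474). The expressed-gene calls, 3 higher and 2 lower, stand beside 11.0% of all genes higher and 57.8% lower, or 31.1% and 29.9% of expressed genes.

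TFEB-Dox against EV-Dox, which shares its libraries with the comparisons above, called MAX (2.79), MXD1 (2.81), MLX (3.55), MXI1 (1.54), MNT (1.78) and MGA (1.60) higher and MXD4 (-1.39) lower on the deposited scale. Of all genes tested 27.2% were higher and 5.37% lower, and of expressed genes 55.8% and 0.686%. MAX, MXD1 and MLX kept their calls without any 1 library. MNT was lost without TFEB-Dox 2, MGA without that library, EV-Dox 2, EV-Dox 3 or TFEB-Dox 3, and MXI1 without any of those or TFEB-Dox 1, so that the 6 became 3 without TFEB-Dox 2. MXD4 was not called without EV-Dox 1 or 2 or TFEB-Dox 3. On the expressed-gene scale MAX (1.42), MXD1 (1.44), MLX (2.17) and MNT (0.40) were higher and MYC (-0.69), MXD3 (-2.02) and MXD4 (-2.76) lower, beside 14.2% of all genes higher and 57.6% lower, or 36.4% and 35.4% of expressed genes. MNT was not called there without EV-Veh 1, EV-Dox 2, EV-Dox 3, TFEB-Dox 2 or TFEB-Dox 3. Without induction the lines were not told apart: TFEB-Veh against EV-Veh called 0 members and 0% of all genes by limma, edgeR or DESeq2. At an unadjusted p under 0.05 limma gave 0 members on either scale, and 1754 genes on the deposited and 2004 on the expressed-gene scale.

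Ratios within a library compare each gene with MYC without any scaling. MYC over MAX was 36.5, 43.2 and 52.0 in EV-Veh and 9.45, 14.0 and 14.1 in EV-Dox. It was 30.1, 35.8 and 50.6 in TFEB-Veh and 2.21, 3.27 and 3.23 in TFEB-Dox. The vehicle groups of the lines overlapped, and each doxycycline group lay below both, with TFEB-Dox lowest.

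In EV cells all 9 other genes rose relative to MYC, from 1.61 ± 0.30 for MNT to 4.12 ± 0.81 for MYCN on the log2 scale. This was the background, since 99.7% of all genes tested and 99.6% of expressed genes did so. In TFEB cells 8 of 9 rose relative to MYC, beside 74.1% of all genes and 95.5% of expressed genes. Of all genes 0.0389% fell, and 0.123% of expressed genes. MLX (4.75 ± 0.30), MXD1 (4.15 ± 0.31) and MAX (3.73 ± 0.29) rose most, MGA, MNT and MXI1 rose by 2.66, 2.53 and 2.49, MYCN by 2.25 and MXD3 by 1.17. MXD4 was the exception at 0.47 ± 0.33 (adjusted p = 0.176), so its change was not told apart from that of MYC, except without TFEB-Veh 1 (0.75, adjusted p = 0.0322). The rises of MYCN and MXD3 each ended without some single libraries (MYCN without TFEB-Veh 2 or TFEB-Dox 1, MXD3 without TFEB-Veh 3 or TFEB-Dox 1).

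The difference between the lines in these ratios was called higher for MLX (2.72 ± 0.42), MXD1 (2.09 ± 0.43) and MAX (1.90 ± 0.41) and lower for MXD4 (-2.33 ± 0.47) and MXD3 (-1.62 ± 0.55). Of all genes tested 10.5% were higher and 11.2% lower, and of expressed genes 30.5% and 4.64%. MXD3 was not called when any 1 of 8 of the 12 libraries was left out, which made the lower calls 1: EV-Veh 2 or 3, EV-Dox 1 or 3, TFEB-Veh 1 or 2, or TFEB-Dox 2 or 3. MXI1, MNT and MGA, at 0.65, 0.91 and 0.91, were not called (adjusted p of 0.224, 0.0901 and 0.0683), although MNT passed without EV-Dox 1 (adjusted p = 0.0498). Over both lines together the ratio to MYC was higher with doxycycline by 3.39 for MLX, 3.10 for MXD1 and 2.78 for MAX, and by 1.64 for MXD4. The exact permutation p was 0.005 for MLX, MXD1 and MAX and 0.015 for MXD4 (two-sided, raw, 9 genes tested), a use of that test that was not planned. Since MYC itself fell and most genes rose relative to it, these p-values do not single out the members.

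**Figure D3:**
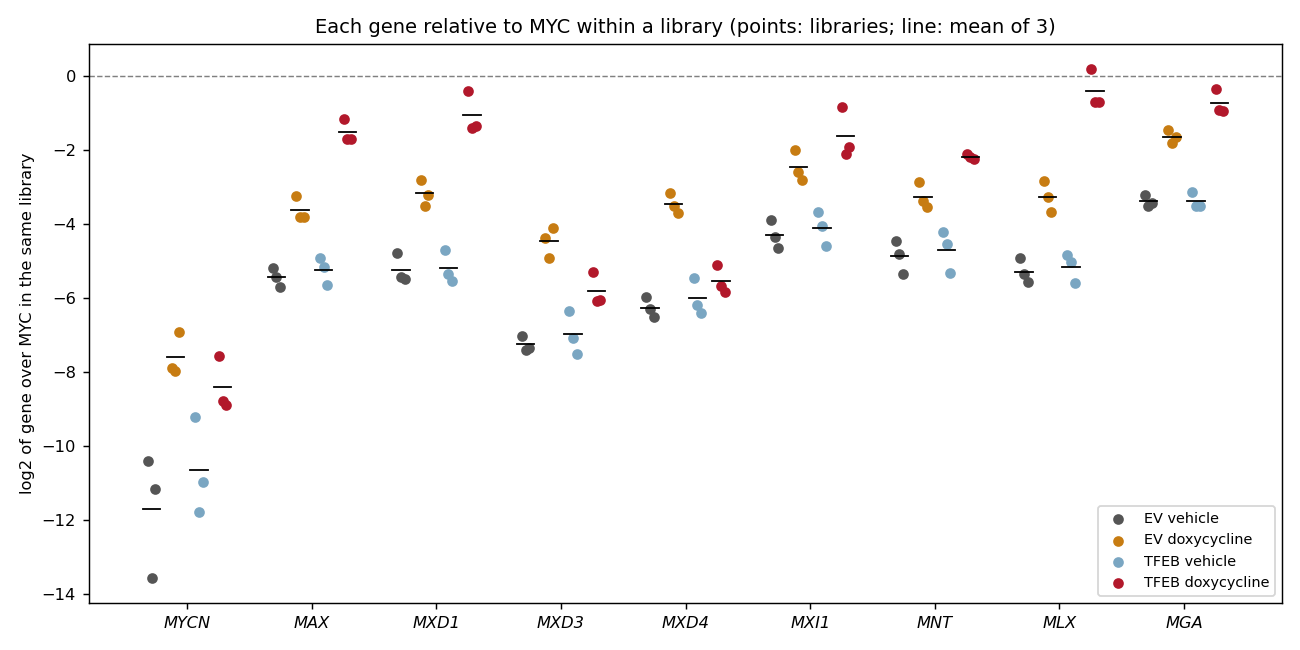
Log2 of each of 9 genes over MYC in the same library, by group, with 1 point per library and a line at the mean of 3. Every gene was higher relative to MYC with doxycycline on average; MLX came closest to MYC in TFEB-Dox, and MXD4 rose least there, by 0.47.

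Levels of different genes were compared per kilobase of exon (union of GENCODE 29 exons) on the expressed-gene scale. The union counts every annotated exon, used in these cells or not, and was 3001 bases for MYC and 17651 for MGA. Orders and sums per kb across genes hold for these lengths only. MYC was first in every group, with 7055 ± 1221 normalized reads per kb in EV-Veh, 1785 ± 249 in EV-Dox, 6700 ± 1736 in TFEB-Veh and 1124 ± 264 in TFEB-Dox (SD, n = 3). MXI1 was second in the first 3 groups, at 231 ± 20, 210 ± 33 and 247 ± 19. In TFEB-Dox MLX was second at 590 ± 59, followed by MAX at 261 ± 9, MXD1 at 253 ± 34 and MXI1 at 237 ± 54, whose ranges overlapped from 1 to the next.

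Lower in the order, MLX, MGA and MAX followed MXI1 in EV-Veh, at 126 ± 7, 115 ± 13 and 109 ± 4 normalized reads per kb, overlapping neighbours. MXD1 and MNT came next at 88.1 ± 10.1 and 82.4 ± 11.6, also overlapping, and MXD4, MXD3 and MYCN were lowest at 38.7 ± 0.6, 26.5 ± 2.1 and 2.92 ± 2.12, each apart from the next. In TFEB-Veh MAX stood before MGA and MNT before MXD1, with overlapping libraries. In EV-Dox MXD4, at 68.6 ± 3.9, stood above MNT at 63.7 ± 6.7 with overlapping libraries, and in TFEB-Dox MXD4 fell to 10.0 ± 0.8, below MXD3 at 11.3 ± 0.6.

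The 6 antagonists added together, per kb, were 10.6, 7.90 and 6.88% of MYC in EV-Veh and 12.4, 9.04 and 6.87% in TFEB-Veh. They were 41.6, 28.7 and 29.3% in EV-Dox and 96.1, 51.5 and 53.4% in TFEB-Dox. The doxycycline groups were above the vehicle groups and apart from each other. MYC is the divisor of these percentages, and its mean went from 7055 to 1785 normalized reads per kb in EV cells. In TFEB cells it went from 6700 to 1124. Relative to MYC 99.6% of expressed genes rose in EV cells and 95.5% in TFEB cells. A higher percentage therefore does not by itself show more antagonist RNA. The make-up of the sum differed as well: MXD1 was 13.9 to 16.3% of it in EV-Veh, 14.5 to 17.4% in EV-Dox, 12.7 to 14.7% in TFEB-Veh and 34.8 to 37.1% in TFEB-Dox. The 3 induced libraries lay above the other 9.

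**Figure D4:**
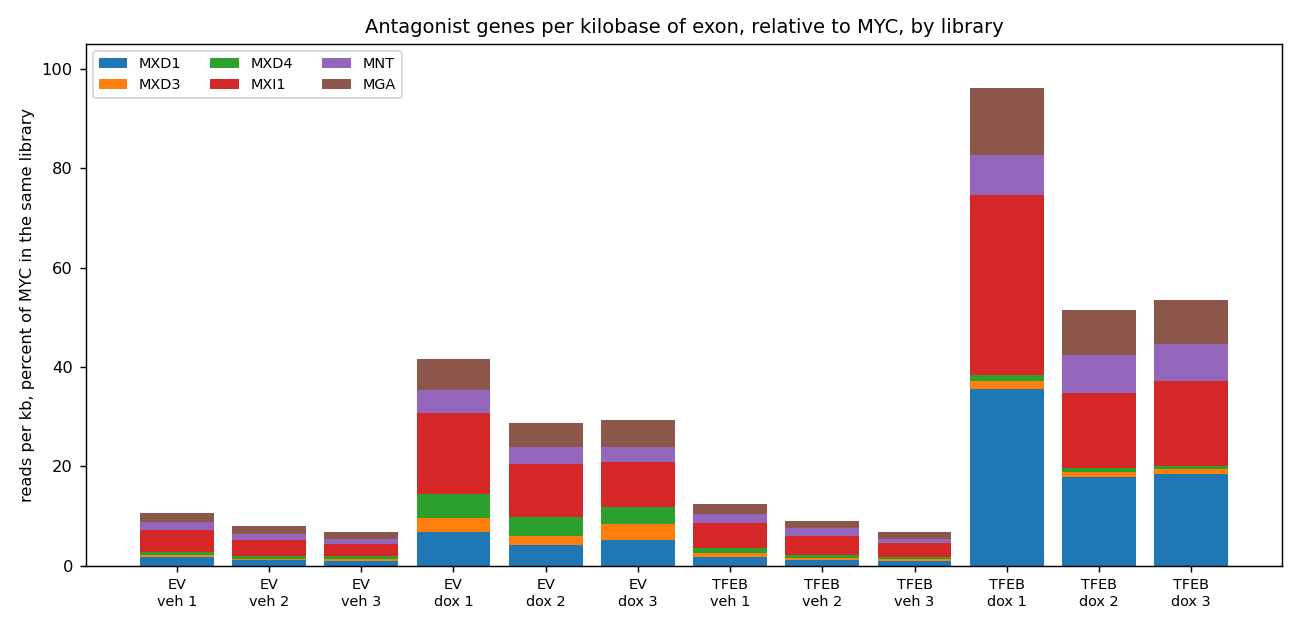
Normalized reads per kb of exon of the 6 antagonists, stacked and as a percentage of MYC in the same library, for the 12 libraries. The stacks sum to 6.87 to 12.4% with vehicle, 28.7 to 41.6% in EV-Dox and 51.5 to 96.1% in TFEB-Dox, and MXD1 is the part that widened most in the last group. MYC, the divisor, was itself lower with doxycycline.

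Genes that MYC is known to activate were read from a list of 35 genes of nucleolar, metabolic and cell cycle function. In EV cells all 35 fell on the deposited scale (median -2.20, all genes tested -0.19, expressed genes -1.29), and 31 fell on the expressed-gene scale (median -0.91, all genes 1.05, expressed genes 0). Of all genes tested 23.3% fell on the deposited and 5.75% on the expressed-gene scale, and of expressed genes 51.2% and 17.5%. The deposited count was 11 without EV-Veh 2, and the expressed-gene count was 22 without that library and 26 without EV-Veh 1. SRM, which makes spermidine, fell by 2.96 on the deposited and 1.68 on the expressed-gene scale, PA2G4, a growth regulator, by 2.54 and 1.25, and BOP1, a ribosome assembly factor, by 2.72 and 1.50.

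In TFEB cells the same list was divided. On the deposited scale HK2, ODC1 and NPM1 rose and BOP1 and CDC25A fell (3 and 2 genes, median -0.26), and on the expressed-gene scale 6 rose and 21 fell (median -1.01, all genes -0.72, expressed genes -0.02). Deposited medians were 0 for all genes and 0.73 for expressed genes. Of all genes tested 17.4% rose and 4.66% fell on the deposited scale, and of expressed genes 31.5% and 3.51%. The expressed-gene scale had 14.4% of all genes higher and 20.7% lower, and 34.4% and 33.2% of expressed genes. BOP1 fell on both scales (-1.50 ± 0.37 and -2.21 ± 0.43). HK2, the hexokinase of glycolysis, rose on both (3.78 ± 0.52 and 3.03 ± 0.13) although it fell in EV cells. The 6 that rose on the expressed-gene scale were HK2, ODC1, NCL, NPM1, CDK4 and WDR43, and each of them fell in EV cells. These, apart from HK2, and CDC25A were named after their values were seen. HK2 was not called in EV cells without EV-Veh 2 on either scale or without EV-Dox 3 on the deposited one, and BOP1 not without EV-Veh 2 on the expressed-gene scale. On that scale 18 of the 35 fell in both lines. The deposited rises numbered 7 without EV-Dox 3 and 1 without TFEB-Veh 1 or any 1 TFEB-Dox library, and the falls 1 without TFEB-Veh 2 or 3 or TFEB-Dox 3.

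Of 17 listed genes that MYC is known to repress, 16 were tested. In TFEB cells 9 rose and 2 fell on the deposited scale (median 1.39), and 6 rose and 4 fell on the expressed-gene scale (median 0.65). Of all genes tested 17.4% rose and 4.66% fell on the deposited scale (median 0) and 14.4% and 20.7% on the expressed-gene scale (median -0.72), and of expressed genes 31.5% and 3.51%, then 34.4% and 33.2%. The falls were of CEBPD and TXNIP on the deposited scale, with CDKN1B and NDRG2 added on the other. CDKN1A, the p21 inhibitor of cell division, rose by 7.46 ± 0.38 and 6.71 ± 0.31, NDRG1 by 4.33 and 3.58, FTH1, a ferritin chain, by 4.19 and 3.44, and KLF6 by 4.17 and 3.42. In EV cells 1 rose (CDKN2B) and 6 fell on the deposited scale (median -0.82). There 7 rose and 1 fell (DDIT3) on the expressed-gene scale (median 0.46), and CDKN1A rose by 1.78 ± 0.31. In that comparison 3.39% of all genes rose and 23.3% fell on the deposited scale (median -0.19), and 44.1% and 5.75% on the expressed-gene scale (median 1.05). CEBPD, TXNIP, CDKN1B, NDRG2, CDKN2B and DDIT3 were named after their values were seen. The 6 became 1 without EV-Veh 2 and 2 without EV-Dox 3, and the 1 rise became 0 without EV-Veh 1. The 2 deposited falls in TFEB cells became 0 without TFEB-Veh 2 or TFEB-Dox 3, and 1 without EV-Veh 1, EV-Dox 2, TFEB-Veh 1 or 3 or TFEB-Dox 1 or 2.

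**Figure D5:**
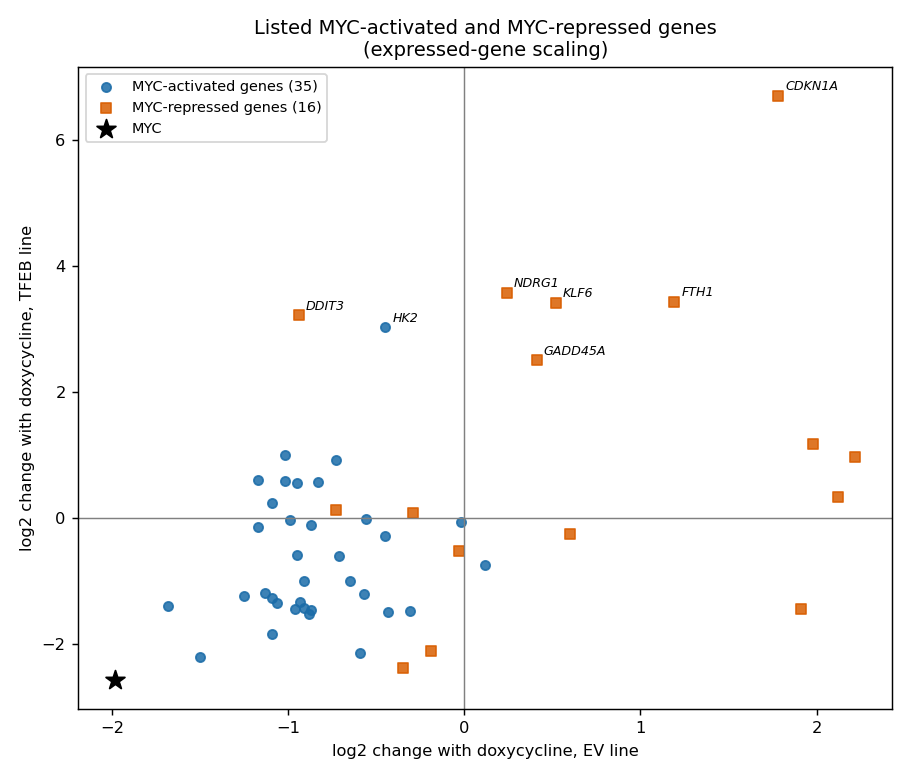
Log2 change with doxycycline in EV cells (horizontal) and TFEB cells (vertical) on the expressed-gene scale, for 35 MYC-activated genes (circles), 16 MYC-repressed genes (squares) and MYC itself (star, at -1.98 and -2.57). Most circles lie left of 0; HK2 and 6 squares, CDKN1A highest, lie at 2.51 or higher in TFEB cells.

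Lists of genes that act on MYC or with the network were described in the same way, and their counts stand beside those of the 7290 expressed genes. Of these, 0.370% rose and 51.2% fell in EV cells and 31.5% rose and 3.51% fell in TFEB cells on the deposited scale (medians -1.29 and 0.73). On the expressed-gene scale 20.9% rose and 17.5% fell in EV cells and 34.4% and 33.2% in TFEB cells. Of 15 genes that regulate MYC transcription, 0 rose and 9 fell in EV cells and 7 rose and 2 fell in TFEB cells on the deposited scale (medians -1.28 and 1.04). The share that fell in EV cells was close to the 51.2% of expressed genes. MYB, a myeloid transcription factor, fell in both lines on both scales (-2.71 deposited and -1.42 expressed-gene in EV cells, -2.79 and -3.54 in TFEB cells). E2F1, a cell cycle factor, did so as well (-2.22 and -0.94, then -1.87 and -2.62). CTNNB1, which is β-catenin, rose in TFEB cells (2.86 and 2.11), and so did STAT3, a cytokine signalling factor (1.83 and 1.08). The expressed-gene scale gave 3 rises (TCF7L2, STAT3 and STAT5A) and 3 falls (MYB, HNRNPK and E2F1) in EV cells. E2F1 was not called in EV cells without EV-Veh 2 on either scale (adjusted p of 0.0549 and 0.111) or without EV-Veh 1 or EV-Dox 3 on the expressed-gene scale, and the deposited rise of STAT3 ended without TFEB-Dox 2 (adjusted p = 0.0526).

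Of 15 genes of MYC protein turnover, 0 rose and 12 fell in EV cells and 4 rose and 1 fell in TFEB cells on the deposited scale (medians -1.41 and 0.80). Of expressed genes 51.2% fell in the first comparison and 31.5% rose in the second. SKP2, a ubiquitin ligase subunit, was the 1 that fell in TFEB cells (-2.01 deposited, -2.76 expressed-gene). PPP2R5A, a subunit of the phosphatase PP2A, rose there (2.21 and 1.46), as did STUB1, a ubiquitin ligase (1.38 and 0.63), GSK3A and GSK3B, the paired kinases that mark MYC for degradation (1.53 and 0.78, 1.54 and 0.79). STUB1 fell in EV cells (-1.73 and -0.44), and so did USP36, a nucleolar deubiquitinase (-2.09 and -0.80). The deposited rises of STUB1, GSK3A and GSK3B each ended without any 1 of several libraries, TFEB-Veh 1 (adjusted p of 0.205, 0.159 and 0.138) and TFEB-Dox 2 (0.170, 0.179 and 0.140) among them, while their expressed-gene rises held without any 1 library. The fall of STUB1 in EV cells ended on both scales without EV-Veh 2 or EV-Dox 3, and that of USP36 on the deposited scale without EV-Veh 2. The expressed-gene counts were 1 rise (GSK3B) and 2 falls (USP36 and STUB1) in EV cells. In TFEB cells they were 5 rises, with HUWE1 added, and 5 falls (SKP2, USP37, AURKA, PLK1 and KIAA1524, now named CIP2A).

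Of 15 MYC cofactors, 0 rose and 9 fell in EV cells on the deposited scale, and in TFEB cells SUPT5H, KAT5 and EP400 rose and KAT2A fell (3 and 1 genes, medians -1.42 and 0.34), beside 51.2% of expressed genes lower and 31.5% higher. The share of falls was close to that of expressed genes. RUVBL1 and RUVBL2, paired ATPases, fell in EV cells on both scales (-2.10 and -0.82, -2.37 and -1.08) and in TFEB cells on the expressed-gene scale (-1.25 and -1.49). SUPT5H, a transcription elongation factor, rose in TFEB cells (2.08 and 1.33). The expressed-gene counts were 1 rise (BPTF) and 4 falls (RUVBL1, RUVBL2, WDR5 and ACTL6A) in EV cells, and the same 3 rises and 6 falls in TFEB cells.

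Partners of the antagonists were mixed. Of 13 genes of the MGA complex, 0 rose and 8 fell in EV cells on the deposited scale, and RYBP, YAF2 and E2F6 rose and 0 fell in TFEB cells (3 genes, medians -1.35 and 0.36), beside 51.2% of expressed genes lower in the first and 31.5% higher in the second. RYBP, a Polycomb subunit, rose in TFEB cells by 4.66 ± 0.50 on the deposited and 3.91 ± 0.13 on the expressed-gene scale, and its paralog YAF2 by 2.11 ± 0.44 and 1.37 ± 0.15. Both also rose in EV cells on the expressed-gene scale (0.54 and 0.41), where the count was 2 rises and 4 falls (TFDP1, CBX3, WDR5 and HDAC2). The rise of RYBP there ended without EV-Veh 2, and that of YAF2 without EV-Veh 1 or 2 or EV-Dox 2 or 3. In TFEB cells that scale gave the 2 rises and 8 falls.

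Of 16 SIN3 and corepressor genes, 0 rose and 8 fell in EV cells and 1 rose and 0 fell in TFEB cells on the deposited scale (medians -1.14 and 0.29). The falls were at the share of expressed genes, 51.2%, and 31.5% of expressed genes rose in TFEB cells. The 1 rise was SAP130, a subunit of the SIN3 complex (1.67 ± 0.51, and 0.92 ± 0.12 on the expressed-gene scale), and its deposited call ended without TFEB-Veh 1 or TFEB-Dox 2 (adjusted p of 0.0854 and 0.0941). The expressed-gene counts were 3 rises (SIN3B, SAP130 and TLE1) and 2 falls (HDAC2 and RBBP4) in EV cells, and 2 rises (SAP130 and NCOR1) and 6 falls in TFEB cells.

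The targets of the MLX branch also went different ways. Of 6 MondoA targets, 0 rose and 3 fell in EV cells (HK2, TXNIP and ARRDC4) and 2 rose and 1 fell in TFEB cells on the deposited scale (medians -1.44 and -0.26). These shares were close to the 51.2% lower and 31.5% higher of expressed genes. TXNIP, the best known of them, was the 1 that fell in TFEB cells (-1.63 ± 0.61, adjusted p = 0.0479, and -2.38 ± 0.31 on the expressed-gene scale). The deposited call ended without any 1 TFEB library, EV-Veh 1 or EV-Dox 2 (adjusted p of 0.0581 to 0.181), and the expressed-gene call held without any 1 library. HK2 and PFKFB3, both of glycolysis, rose there (PFKFB3 by 2.33 and 1.58). The expressed-gene counts were 1 rise (ARRDC3) and 1 fall (HK2) in EV cells, and the same 2 rises and 3 falls (TXNIP, ARRDC4 and ARRDC3) in TFEB cells. Genes in these 6 lists whose values are not given were named after their values were seen, and so were GSK3A and GSK3B.

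The 5 genes most like MYC over the 12 libraries, by Pearson correlation of deposited log2 values across 7312 candidates at a mean of 200 or more, were POLR1E, DPH2, NUCB2, PUS7 and MTHFD1, at 0.99, 0.99, 0.99, 0.98 and 0.98. The expressed-gene values gave 0.95 to 0.98. The 12 points share 1 scale factor per library and fall into vehicle and doxycycline groups, so the values describe likeness and carry no test. POLR1E is a subunit of RNA polymerase I and MTHFD1 an enzyme of folate metabolism. After levelling of expressed genes all 5 fell in both lines, DPH2 by 1.23 in EV cells and 2.14 in TFEB cells.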

How the data were processed

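RNA from 12 HL60 cultures was isolated with a NucleoSpin kit and sequenced from NuGEN Ovation FFPE libraries, per the labels' protocols. STAR 2.5.3a and HTSeq 0.6.1 are named in the submitters' processing notes. Strandedness, gene models and reference assembly behind these counts were not given in the sources used here. The deposited values are a normalized signal. The values themselves show reads divided by a single factor in each library: 100% were whole multiples of 1 step (tolerance 0.01), although EV-Veh 2 and TFEB-Veh 3 had steps within 1% of 1, and rounding would look the same.

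limma 3.58.1 (R 4.3.3) was fitted to log2(value + 1) of every gene whose mean reached 10, with 1 mean per group, a variance trend, two-sided tests and Benjamini-Hochberg adjustment over 23128 genes at 0.05. Fold changes are on the log2(value + 1) scale, which understates the change of low genes. The expressed-gene scale divides each library by its median ratio over 7290 nuclear genes at a mean of 200 or more. Ratios to MYC were fitted the same way on log2 differences within a library. Exact permutation tests (scipy 1.17.1) exchanged labels within lines. On the recovered reads, edgeR 4.0.16 called 7231 genes in EV and 6685 in TFEB cells with doxycycline, and DESeq2 1.42.0 called 7579 and 6222, against 6179 and 5109 by limma. Scripts were tested on simulated data. Other scalings, pseudocounts, filters, fits and left-out libraries were tried.

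The members and gene lists were chosen with earlier results of these data known. All 10 members are named. From each list the text names up to 4 called genes, those with the largest deposited change in either doxycycline comparison, and if under 2 were called the 2 most abundant. Genes beyond this are marked as chosen after their values were seen. Levels per kb use GENCODE 29 exon lengths, and promoters come from RefSeq (GRCh38.p14). MLXIP and MLXIPL were named as the partners of MLX. The counts of regulators of MYC transcription called in TFEB cells on the expressed-gene scale, in either direction, are not reported here.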

Additional observations from a re-analysis of the deposited data

Results flagged for a closer look

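These results differed between the EV and TFEB lines by the test of the difference itself, the interaction of vector and doxycycline in limma (adjusted p under 0.05). On the deposited scale the difference was 3.35 for MAX, 3.53 for MXD1, 4.17 for MLX, 2.10 for MXI1, 2.36 for MNT and 2.36 for MGA. On the expressed-gene scale it was 1.32 for MAX, 1.50 for MXD1, 2.13 for MLX, -2.20 for MXD3 and -2.91 for MXD4. Relative to MYC within a library it was 1.90 for MAX, 2.09 for MXD1, 2.72 for MLX, -1.62 for MXD3 and -2.33 for MXD4. MAX, MXD1 and MLX were called on all 3, whereas MXI1, MNT and MGA were called on the deposited scale alone. The median of all genes tested was 0.31, -1.67 and -1.14 on the 3 measures.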

How the results depend on the processing

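On the deposited scale the count of members called in EV-Dox against EV-Veh moved from 5 to 2 with no filter on low values and to 1 with only the groups compared, all lower. Equal library totals gave 3 lower and 3 higher, and expressed-gene scaling 1 lower and 3 higher. The falls became rises, without a call, for MXD1 (0.08) and MLX (0.05) with expressed-gene scaling, and for MXD3 and MXD4 with edgeR (0.15 and 0.21). MXD3 and MXD4 were called higher with equal totals (0.65 and 0.67) and expressed-gene scaling (0.81 and 0.82). In TFEB-Dox against TFEB-Veh the lower count was 1 with no filter, and uncalled members turned negative with equal totals (MYCN -0.36, MXI1 -0.20, MNT -0.16, MGA -0.03) and expressed-gene scaling (MYCN -0.26, MXI1 -0.09, MNT -0.04). Of TFEB-Dox against EV-Dox the lower count was 3 with equal totals or expressed-gene scaling and 2 with edgeR or DESeq2, the higher count was 3 with equal totals, and MYC was -0.75 and -0.69 on those 2 scalings. For TFEB-Veh against EV-Veh expressed-gene scaling turned MAX (0.10), MXD3 (0.18), MXD4 (0.15), MXI1 (0.10), MNT (0.08) and MLX (0.04) positive, and equal totals MXD3 (0.07) and MXD4 (0.04). The interaction had 3 lower and 3 higher with equal totals, 2 and 3 with expressed-gene scaling, and 2 (edgeR) or 1 (DESeq2) lower. MYC was -0.55 and -0.59 there, and MXD3 0.06 with equal upper quartiles. Relative to MYC its lower count was 1 with no filter or no variance trend. The cause of these changes was not tested.

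Leaving out each library in turn moved the EV-Dox count between 1 and 7, the TFEB-Dox count between 3 and 5 (0 to 2 lower), the TFEB-Dox against EV-Dox count between 4 and 7 (0 to 1 lower, 3 to 6 higher) and the interaction between 3 and 6 (0 to 1 lower). On the expressed-gene scale EV-Dox had 2 to 5 called, 1 to 2 lower and 1 to 3 higher, and relative to MYC the interaction had 1 to 2 lower. Signs that turned, all without a call, had these ranges. Deposited: MXD4 in EV cells -0.83 to 0.01, MYCN in TFEB-Dox against EV-Dox -0.24 to 0.07, in TFEB-Veh against EV-Veh -0.27 to 0.72 and in the interaction -0.85 to 0.14, and MXD3 in the interaction -0.47 to 0.09. Expressed-gene scale: MLX in EV cells -0.03 to 0.18, MYCN, MXI1 and MNT in TFEB cells -0.80 to 0.25, -0.26 to 0.04 and -0.18 to 0.13, MXI1 in TFEB-Dox against EV-Dox -0.02 to 0.28 and in the interaction -0.12 to 0.18. In TFEB-Veh against EV-Veh that scale gave MYC -0.27 to 0.11, MXD1 -0.13 to 0.03, MNT -0.04 to 0.22 and MLX -0.04 to 0.09.

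Replicate numbers were not shown to pair the libraries: same-numbered deviations correlated at -0.225 to 0.720 (median 0.353, 14 of 18 over 0.1), others at -0.704 to 0.609 (median -0.228, 10 of 36), so that not every pair passed 0.1. A replicate block gave 7 calls in EV-Dox on the deposited scale, 2 lower on the expressed-gene scale and 4 lower in its interaction, where MYC passed (-0.59, adjusted p = 0.0123). Relative to MYC it gave 8 interaction calls, 6 of them higher. The block and left-out fits on the expressed-gene scale, and the both-line test on it, were chosen after seeing the data. Over all alternatives 2165 of 2368 values of single members kept sign and side of the threshold, 106 lost the call, 49 gained one and 48 changed sign, 6 of them with a call on either side. Over all genes limma split EV-Dox calls into 5396 lower and 783 higher, edgeR into 3372 and 3859 and DESeq2 into 5291 and 2288. No interaction could be fitted with only the groups compared, and MYCN has no value at a mean of 50. Reads per library, from 4474007, limit MYCN, with 3 to 19 reads, most.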
